A study of Mus musculus with 6 samples.

Results

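Messenger RNA of the T cell receptor constant genes was measured in NK cells of 2 groups, labelled cNK and DN NK. The genes are Tcrg-C1, Tcrg-C2 and Tcrg-C4 of the gamma locus, Trdc of the delta locus, Trac of the alpha locus, and Trbc1 and Trbc2 of the beta locus. They were taken by exact gene name, which gave 7 of the 27763 gene rows of the deposited table. Each group has 3 libraries, made by poly(A) RNA sequencing of splenic cells. All mice were wild-type C57BL/6 animals 6 weeks old, and the labels name no treatment. The labels do not give the markers behind the group names. They also do not say which libraries share a mouse, so a p-value here speaks only of the scatter among libraries, which may be technical.

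A T cell receptor is a pair of chains, alpha with beta or gamma with delta, held in a complex with the CD3 chains and the zeta chain (Cd247). Each chain gene is assembled in developing T cells by joining V, J and, for beta and delta, D segments, and splicing then links the joined segments to a constant gene. The constant genes therefore mark transcription of a locus whether or not it was rearranged. NK cells do not use a T cell receptor, but transcription across unrearranged receptor loci is known in lymphocytes. A gene-level value does not separate rearranged from unrearranged transcripts.

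The gamma constant genes are close copies, and so are the beta ones, which limits how reads can be assigned to single members. The first 150 bases of exon 1 of the 3 gamma genes, the length of 1 read, are shown because they show how far the copies can be told apart. They lie at chr13:19214103-19214252 on the plus strand for Tcrg-C1, at chr13:19307402-19307551 on the minus strand for Tcrg-C2 and at chr13:19344558-19344707 on the plus strand for Tcrg-C4 (GRCm38, GENCODE M21 transcripts). Capitals mark 4 bases of Tcrg-C1 that differ from Tcrg-C2, the same 4 positions in Tcrg-C2, and 15 bases of Tcrg-C4 that differ from Tcrg-C1.
Tcrg-C1: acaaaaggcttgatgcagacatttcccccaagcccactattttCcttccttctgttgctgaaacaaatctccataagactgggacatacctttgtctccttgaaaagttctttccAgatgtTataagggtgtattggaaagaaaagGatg
Tcrg-C2: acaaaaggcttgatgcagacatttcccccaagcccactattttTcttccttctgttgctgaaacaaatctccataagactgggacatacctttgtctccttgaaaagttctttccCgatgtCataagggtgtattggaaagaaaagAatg
Tcrg-C4: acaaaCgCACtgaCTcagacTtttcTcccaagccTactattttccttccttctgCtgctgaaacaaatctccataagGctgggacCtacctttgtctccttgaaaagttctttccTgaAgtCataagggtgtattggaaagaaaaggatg
Over the whole of exon 1, Tcrg-C1 and Tcrg-C2 differ at 9 of 330 bases (97.3% identity), and their longest shared run over the whole transcripts is 104 bases. Tcrg-C4 differs from Tcrg-C1 at 59 of the 330 bases (82.1% identity), with a longest shared run of 29 bases. No window of 150 bases, the read length, was identical between the transcripts of any of these 3 genes. The annotation also holds Tcrg-C3, whose exon 1 is 96.1% identical to that of Tcrg-C1; it was not analysed here.

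The connecting exons, which encode the stretch between the outer domain and the membrane, also differ in number and length. Tcrg-C1 has 1 of 45 bases, Tcrg-C2 has 1 of 30 bases, and Tcrg-C4 has one of 54 bases followed by one of 45 bases.
Tcrg-C1 connecting exon: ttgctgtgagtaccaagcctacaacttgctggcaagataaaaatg
Tcrg-C2 connecting exon: ttgctacaacttgctggcaagataaaaatg
Tcrg-C4 connecting exon a: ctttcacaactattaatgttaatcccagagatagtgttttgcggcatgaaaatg
Tcrg-C4 connecting exon b: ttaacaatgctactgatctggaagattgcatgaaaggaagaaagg
They lie at chr13:19215864-19215908, chr13:19305769-19305798, chr13:19349536-19349589 and chr13:19350330-19350374, in that order.

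Trbc1 and Trbc2 are closer still. Their exon 1 of 375 bases differs at a single base, shown in capitals within the 80 bases around it (chr6:41538437-41538516 and chr6:41546949-41547028, plus strand, GRCm38).
Trbc1: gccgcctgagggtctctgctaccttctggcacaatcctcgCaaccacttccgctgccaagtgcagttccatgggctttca
Trbc2: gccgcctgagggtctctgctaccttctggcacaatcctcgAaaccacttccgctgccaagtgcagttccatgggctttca
Of the windows of 150 bases within exon 1 of Trbc1, 48.7% occur unchanged in the Trbc2 transcript, and the longest shared run is 259 bases. Reads from that stretch cannot be assigned by sequence, so single values of Trbc1 and Trbc2 are uncertain and their sum is given as well.

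The levels are in FPKM, fragments scaled by transcript length and by sequencing depth, and allow comparison between genes of different length. Estimated counts per library ranged from 79798234 to 89526647, and about 4 of them correspond to 1 read pair. Fold changes are DN NK over cNK from edgeR's quasi-likelihood test on the 11690 rows that reached 1 FPKM in 3 or more of the 6 libraries, with adjusted p after Benjamini-Hochberg. In bulk samples, fewer cells of a type and less RNA per cell cannot be told apart.

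In DN NK all 3 gamma genes and, to a much smaller degree, Trac, Trbc1 and Trbc2 were higher, while Trdc was lower. At an adjusted p under 0.05, 6 of the 7 genes were called higher and 1 lower. This has to be read against a background in which 61.7% of all tested rows were called, 30.8% higher and 30.9% lower. For each of the 7 genes the cNK and DN NK values were fully separated, as they were for 70.3% of tested rows. All 7 passed the filter on low values, but Tcrg-C1 and Tcrg-C2 passed only through the DN NK libraries, so that they had to differ. Without a filter all 7 were called in the same directions, where 15.3% of all rows were called higher and 16.0% lower.

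**Figure D1:**
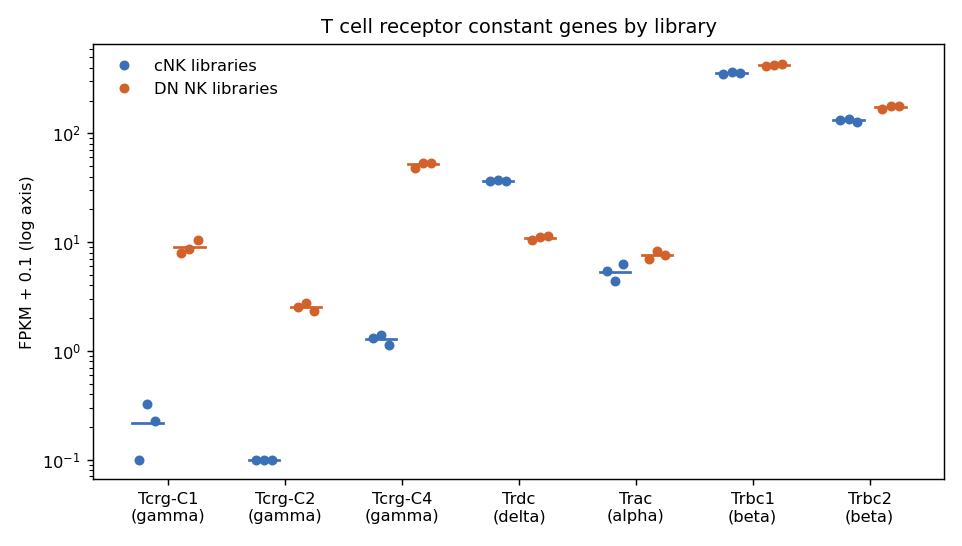
FPKM plus 0.1 (log axis) of the 7 T cell receptor constant genes in each of the 3 cNK and 3 DN NK libraries; points are libraries and bars are group means. The gamma genes lie higher and Trdc lower in DN NK, and the cNK libraries of Tcrg-C2 sit at 0.1 because they are listed at 0.

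Tcrg-C4 (ENSMUSG00000076757) encodes a gamma constant region and spans chr13:19344558-19352756 on the plus strand with 4 exons. Its level was 1.21, 1.30 and 1.04 FPKM in cNK replicates 1, 2 and 3. In DN NK replicates 1, 2 and 3 it was 47.9, 53.8 and 53.4 FPKM. Every DN NK library lay far above every cNK library. The cNK mean was 1.18 ± 0.130 and the DN NK mean 51.7 ± 3.30 FPKM (SD over 3 libraries), a log2 fold change of 5.50 (SE 0.10, edgeR adjusted p = 2.63e-08), or 45.3-fold. Of all tested rows, 63 had a larger log2 fold change.

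Tcrg-C1 (ENSMUSG00000076749, chr13:19214103-19217024, plus strand) was at 0 FPKM in cNK replicate 1 and at 0.228 and 0.126 FPKM in cNK replicates 2 and 3. Those cNK values rest on 33 estimated counts over the group, which is about 8.25 read pairs. In DN NK replicates 1, 2 and 3 it was 7.90, 8.62 and 10.4 FPKM. The cNK libraries were thus near the limit of detection, and the DN NK libraries were all well above it. The log2 fold change was 6.28 (SE 0.67, edgeR adjusted p = 0.000528). Its size depended on single cNK libraries, at 5.69 without cNK replicate 1 and 7.13 without cNK replicate 2.

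Tcrg-C2 (ENSMUSG00000076752, chr13:19304649-19307551) is the gene of the 3 that lies on the minus strand. It was listed at 0 in all 3 cNK libraries and at 2.42, 2.68 and 2.22 FPKM in DN NK replicates 1, 2 and 3. The DN NK values rest on 627 estimated counts over the group. With the 3 cNK libraries together set to 3 read pairs, the limit that a count of 0 allows, the level was at least 56.2-fold higher in DN NK. That limit covers counting error only. The edgeR test of the row (adjusted p = 7.73e-06) is of any difference between the groups and does not test that limit.

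Within the gamma locus Tcrg-C4 held most of the summed level in both groups. Its share of the gamma sum was 100, 85.0 and 89.2% in cNK replicates 1 to 3 and 82.3, 82.6 and 80.8% in DN NK replicates 1 to 3. The shares did not overlap, with p = 0.1 by a 2-sided exact permutation test, the smallest p that 3 against 3 libraries allow. The separation rests on few reads. Tcrg-C1 had 0, 21 and 12 estimated counts in cNK replicates 1, 2 and 3, and Tcrg-C2 had 0 in each. Tcrg-C1 took 14.2 ± 1.40% of the gamma sum in DN NK and 8.59 ± 7.72% in cNK, and these libraries overlapped (exact p = 0.3). Tcrg-C2 took 3.88 ± 0.45% in DN NK. The gamma sum itself was 1.30 ± 0.195 FPKM in cNK and 63.1 ± 4.28 FPKM in DN NK, a ratio of 48.5.

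Trdc (ENSMUSG00000104876) encodes the delta constant region, the partner chain of gamma, and moved the other way. It was 36.30, 37.06 and 36.03 FPKM in cNK replicates 1, 2 and 3. It was 10.26, 10.96 and 11.36 FPKM in DN NK replicates 1, 2 and 3. The cNK libraries lay close together and all above the DN NK libraries. The log2 fold change was -1.69 (SE 0.05, edgeR adjusted p = 1.20e-07), which is 3.22-fold lower in DN NK, and 127 of all tested rows had a smaller log2 fold change.

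The Trdc row spans chr14:54142851-54148868 on the plus strand, and its model is unusual. Exon 4 alone has 3403 bases without coding sequence, so that 88.2% of the transcript of 3865 bases is not coding. RefSeq on GRCm38 ends the gene at 54146108, 2760 bases earlier. Its FPKM is divided by the long model, so the order of Trdc among the other genes depends on it. Whether the comparison between groups holds on the coding exons or the shorter model was not tested. The last 207 bases also overlap Trdv5 on the minus strand, and the library kit does not mark the strand.

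The ratio of gamma to delta turned over between the groups. The delta level was 29.97, 24.32 and 30.87 times the gamma sum in cNK replicates 1, 2 and 3. In DN NK replicates 1, 2 and 3 the gamma sum was 5.67, 5.94 and 5.81 times the delta level. The log2 ratio of gamma to delta was -4.82 ± 0.188 (SD, n = 3) for cNK, against 2.54 ± 0.0332 (SD, n = 3) for DN NK. The size of the turnover in each library depends on the Trdc model, since in estimated counts, which are not divided by length, gamma was 1.429, 1.496 and 1.464 times delta in DN NK replicates 1, 2 and 3. In the same unit delta was 117, 96.2 and 120 times gamma in cNK replicates 1, 2 and 3. The difference of 7.36 in FPKM, 7.34 in estimated counts, had exact permutation p = 0.1 (2-sided), the smallest possible. Of 21 sums, shares and ratios compared in this way, 17 did not overlap between the groups, where 70.3% of tested rows did not. Those 17 have an exact permutation p of 0.124 after Benjamini-Hochberg adjustment over the 21. Several of the 21 restate one another, such as gamma to delta and delta to gamma, so the count is not of separate results.

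Trac (ENSMUSG00000076928, chr14:54220521-54224206, plus strand) encodes the alpha constant region and lies downstream of Trdc in the same region. It was 5.29, 4.30 and 6.12 FPKM in cNK replicates 1, 2 and 3. It was 6.93, 8.25 and 7.57 FPKM in DN NK replicates 1, 2 and 3. The groups did not overlap, but cNK replicate 3 came close to DN NK replicate 1. The log2 fold change was 0.59 (SE 0.15, edgeR adjusted p = 0.00850), or 1.51-fold.

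Trbc1 (ENSMUSG00000076490, chr6:41538218-41539881) and Trbc2 (ENSMUSG00000076498, chr6:41546730-41548352) encode the beta constant regions on the plus strand. Trbc1 was 351, 368 and 356 FPKM in cNK replicates 1, 2 and 3 and 412, 424 and 436 FPKM in DN NK replicates 1, 2 and 3. Trbc2 was 133, 134 and 126 FPKM in cNK and 166, 179 and 178 FPKM in DN NK, in the same order. Both genes were highly expressed in every library, with Trbc1 at rank 141 of the 11690 tested rows in cNK and rank 109 in DN NK. The log2 fold change was 0.30 for Trbc1 (SE 0.04, edgeR adjusted p = 0.000221) and 0.47 for Trbc2 (SE 0.05, edgeR adjusted p = 6.16e-05). The beta sum was 490 ± 10.6 FPKM in cNK and 598 ± 18.1 FPKM in DN NK, a ratio of 1.22. Trbc2 made up 26.8 ± 0.654% of the beta sum in cNK and 29.1 ± 0.460% in DN NK, without overlap (exact p = 0.1).

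**Figure D2:**
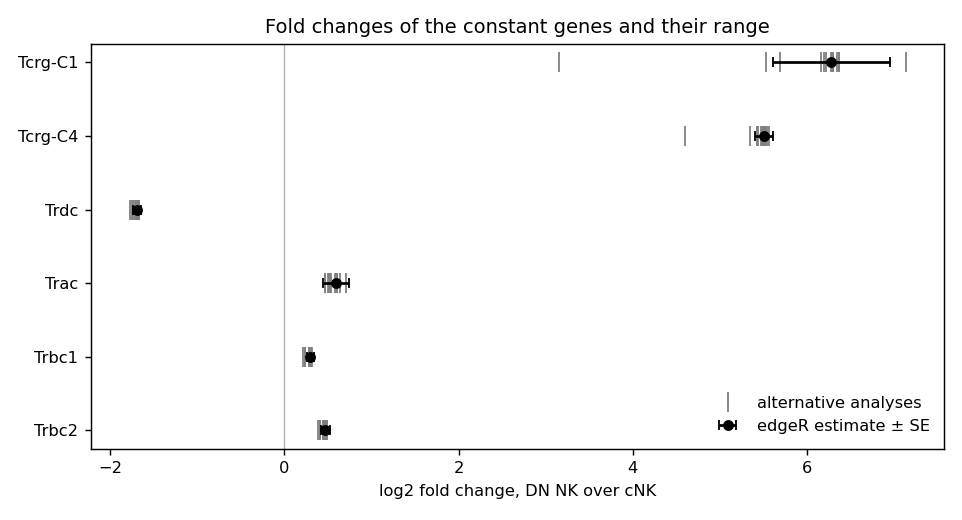
Log2 fold change of DN NK over cNK for 6 of the constant genes: black points with bars are edgeR estimates ± SE, and grey ticks are the alternative analyses. Every tick lies on the same side of 0 as its estimate; Tcrg-C2 is left out because its cNK libraries are all at 0.

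Ordered by level, the genes ran Trbc1, Trbc2, Trdc, Trac, Tcrg-C4, Tcrg-C1 and Tcrg-C2 in cNK. Neighbours in that order did not overlap over the 3 libraries, except Tcrg-C1 and Tcrg-C2, both of which include a library at 0. In DN NK the order was Trbc1, Trbc2, Tcrg-C4, Trdc, Tcrg-C1, Trac and Tcrg-C2. There the libraries of Trdc and Tcrg-C1 overlapped, as did those of Tcrg-C1 and Trac. Tcrg-C4 thus stood 4.43 times below Trac in cNK, and in DN NK 4.76 times above Trdc. Beta genes took 91.9 ± 0.185% of the FPKM of all 7 genes in cNK and 88.0 ± 0.397% in DN NK. The gamma genes took 0.244 ± 0.0314 and 9.28 ± 0.323%, and Trdc 6.84 ± 0.0409 and 1.60 ± 0.0279%. Beta outweighed alpha by 95.7 ± 19.2 times in cNK and 79.2 ± 5.45 times in DN NK, with overlap between the groups (exact p = 0.3).

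Taking gamma and delta together against alpha and beta, the direction depended on the unit. In FPKM the log2 ratio was -3.71 ± 0.00485 in cNK and -3.04 ± 0.0520 in DN NK, a difference of 0.68. In estimated counts scaled by depth alone, which are not divided by length and so weigh the long Trdc row more, the difference was -0.75. No direction is therefore given for this ratio.

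The levels of D and J segments differed widely within a locus: Trbd1 and the Trbj1 rows were high, while Trbd2 was at 1.45 and 2.44 FPKM in cNK and DN NK and Trdj2 at 4.42 and 2.68 FPKM. In the beta locus all 14 J rows were at 1 FPKM or more in both groups. Of these, 3 were called higher in DN NK and 0 lower, where 30.8% of all tested rows were called higher. Trbj1-1, before Trbc1, stood at 306 and 301 FPKM in cNK and DN NK, and Trbd1 at 225 and 265 FPKM. None of the 22 listed beta V rows reached a mean of 1 FPKM in cNK, against 8 in DN NK, of which Trbv13-2 was highest at 2.74 FPKM. Of the 77 alpha V and 24 alpha J rows, 0 reached a mean of 1 FPKM in either group. Summed over all rows, however, alpha V reads were 64, 64 and 29 estimated counts in cNK replicates 1, 2 and 3 and 300, 268 and 283 in DN NK replicates 1, 2 and 3. Beta V reads were 30, 42 and 61 in cNK and 741, 648 and 604 in DN NK, in the same order, so both V sums were higher in every DN NK library.

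In the delta locus, 5 of the 6 tested segments were called lower and 0 higher. Over all tested rows, 30.9% were called lower and 30.8% higher. The delta rows share a locus, so they are not independent of each other. Trdj1 was at 61.2 FPKM in cNK and 15.0 FPKM in DN NK (log2 fold change -1.96), and the D segment Trdd2 at 29.1 and 8.08 FPKM (log2 fold change -1.77). The V segments Trdv2-2 and Trdv4 fell less, by 1.17 and 0.44 on the log2 scale, and were still at 14.1 and 33.2 FPKM in DN NK. Trdv5, which shares bases with Trdc, fell by 2.06. Trdj2 did not pass (edgeR adjusted p = 0.126), and Trdv2-1, below the filter, was at 0.278 FPKM in cNK and 1.05 FPKM in DN NK. In the gamma locus, Trgj4, the J segment before Tcrg-C4, rose from 0.423 to 14.4 FPKM (log2 fold change 4.88). Tcrg-V5 was at 4.26 FPKM in DN NK and 0.121 FPKM in cNK, and Tcrg-V4 at 1.18 FPKM in DN NK and listed at 0 in cNK. Trgj4, Tcrg-V5 and Tcrg-V4 passed the filter only through the DN NK libraries, so that they had to be higher there. In cNK replicates 1, 2 and 3, Trgj4 rests on 4, 4 and 1 estimated counts. D and J rows span few bases, and Trdd2, for example, rests on 8 to 52 estimated counts a library.

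**Figure D3:**
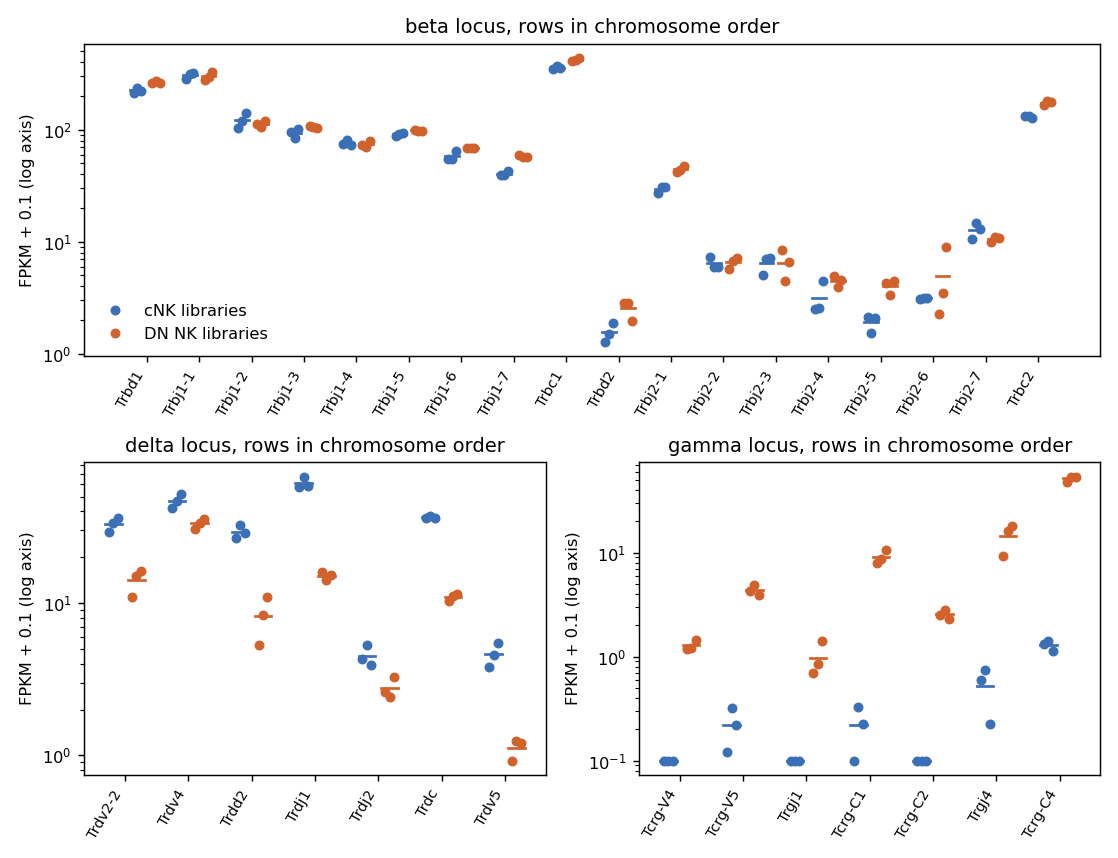
FPKM plus 0.1 (log axis) of segment and constant gene rows in chromosome order, for the beta, delta and gamma loci; points are libraries and bars are group means. The Trbj1 rows lie above the Trbj2 rows in both groups, and the 7 delta rows plotted are lower and the gamma rows plotted higher in DN NK.

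Genes of the receptor complex and its first signalling steps did not move as one. Of 28 listed genes 25 were tested, and 8 rose, 14 fell and 3 did not pass. The median log2 fold change was -0.20 against -0.02 over all tested rows. As background for this list and those below, 30.8% of all tested rows were called higher and 30.9% lower. In this list 1 tested gene (Trat1) passed the filter only through DN NK and so had to be higher there. The same holds for 3 tested genes of the regulator list and for Cish of the interleukin-7 axis. The CD3 chains Cd3d and Cd3g rose. Cd3d went from 4.54 ± 0.358 to 38.5 ± 0.873 FPKM (log2 fold change 3.14) and Cd3g from 3.39 ± 0.133 to 17.3 ± 0.750 FPKM (log2 fold change 2.41). Cd3e, the CD3 chain without which no receptor reaches the surface, lay below the filter at 0.0218 ± 0.0214 FPKM in cNK and 0.846 ± 0.122 FPKM in DN NK. Cd247, the zeta chain that NK cells also use with CD16 and NKp46, fell by 1.14 on the log2 scale, from 35.4 ± 1.19 to 15.4 ± 0.653 FPKM. Fcer1g, the related adaptor chain, was the most abundant member and fell by 0.54. Trat1, an adaptor of the receptor complex, rose by 4.55 on the log2 scale, to 10.6 ± 0.682 FPKM. The kinase gene Zap70 lay at 0.05 and did not pass.

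**Figure D4:**
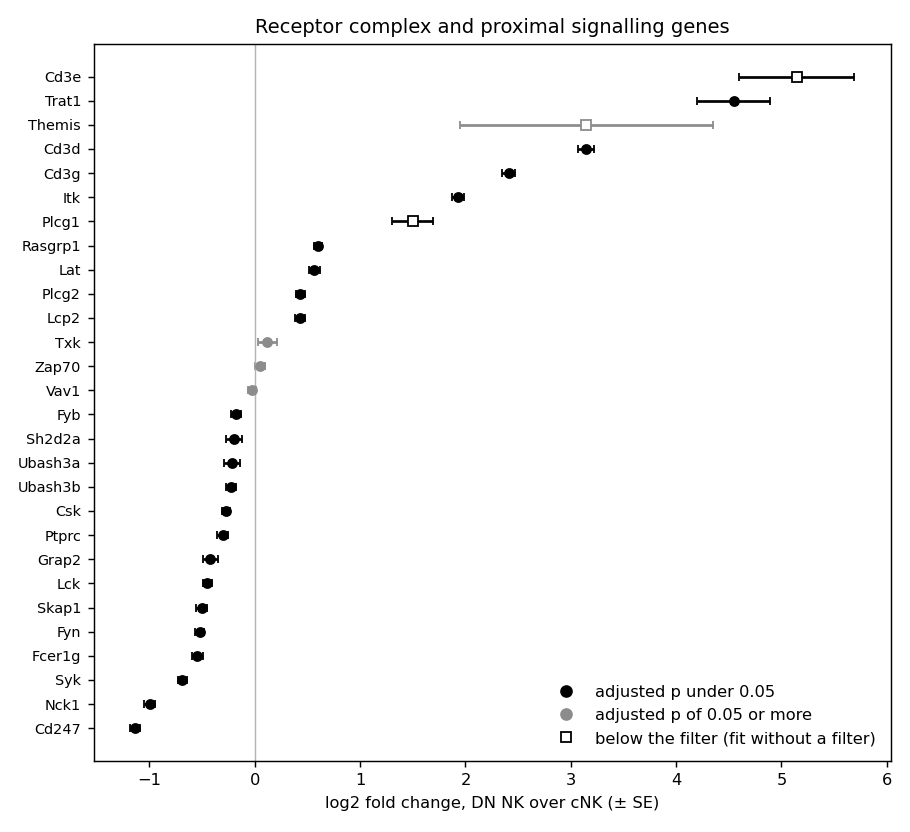
Log2 fold change of DN NK over cNK with its SE for the 28 genes of the receptor complex and proximal signalling list; black marks are genes with an adjusted p under 0.05, and open squares come from the fit without a filter. Cd3e, Trat1, Themis, Cd3d and Cd3g lie farthest to the right, and Cd247 is the lowest.

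Rag1 and Ptcra were at or near 0, and the tested genes of the recombination list did not share a direction. Rag1, which encodes a subunit of the recombinase, was listed at 0 in all cNK libraries and at 0.0422, 0.0122 and 0.00619 FPKM in DN NK replicates 1, 2 and 3. Ptcra, the pre-T alpha chain, was listed at 0 in all cNK libraries and at 0.0310, 0.0313 and 0 FPKM in DN NK replicates 1, 2 and 3. Of 8 tested genes in the list, 5 fell, 1 rose and 2 did not pass (median log2 fold change -0.26). Dclre1c, which encodes the end-opening nuclease Artemis, was the member that rose, by 1.24 on the log2 scale, while Hmgb2 and Nhej1 fell by 0.72 and 0.69.

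Regulators known to act on these loci gave 14 of 30 tested genes higher, 8 lower and 8 not past (median log2 fold change 0.26). Rora and Id3 rose, with log2 fold changes of 4.14 and 3.99. Tcf7, which encodes TCF-1, was the most abundant member and rose by 0.70 to 196 ± 3.94 FPKM. The interleukin-7 receptor and STAT5 are known to open the Tcrg locus to transcription and rearrangement in developing T cells. Of 9 tested genes on that axis 6 rose, 2 fell and 1 did not pass (median log2 fold change 0.35). Il7r rose from 2.71 ± 0.110 to 65.5 ± 2.81 FPKM, Cish and Stat5a rose by 1.94 and 1.03, and Stat5b by 0.35. Jak1 and Bcl2 fell by 0.69 and 0.57, and Pim1, the most abundant member, lay at -0.03 and did not pass. Whether the level of Il7r bears on the gamma genes was not tested.

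Markers of other lymphocytes moved with these results in the DN NK libraries, and their part in the results was not tested. For alpha beta T cells, 7 of 19 markers reached 1 FPKM in cNK and 11 in DN NK, with summed levels of 88.3 to 103 and 198 to 199 FPKM. Cd28 alone was at 65.8 FPKM in cNK and 97.3 FPKM in DN NK. Cd4 was at 0.0160 ± 0.0202 FPKM in cNK and 3.51 ± 0.290 FPKM in DN NK, and Cd5 at 0.0681 ± 0.0281 and 0.606 ± 0.0447 FPKM. Cd8a reached 0.116 ± 0.0441 FPKM in DN NK, and Cd8b1 was listed at 0 in DN NK replicates 1 and 3 and at 0.0816 FPKM in replicate 2. For gamma delta T cells, 3 of 13 listed markers reached 1 FPKM in cNK and 7 in DN NK, with sums of 12.1 to 12.7 and 70.6 to 73.7 FPKM. Most of that DN NK sum is Cd3d and Cd3g, at 38.5 and 17.3 FPKM. Both are also in the alpha beta list, so the rise in the sum is not particular to gamma delta T cells. Sox13, a factor that marks a branch of gamma delta T cells, was near 0 in both groups at 0.0222 ± 0.0252 and 0.00813 ± 0.00968 FPKM, and Il17f and Ccr6 were listed at 0 in all cNK libraries. In DN NK replicates 1, 2 and 3, Ccr6 was at 0.853, 0.902 and 0.980 FPKM and Il17f at 0.0978, 0.1005 and 0.0180 FPKM.

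Other marker lists gave the following sums. For B cells, 1 of 12 markers reached 1 FPKM in cNK and 9 in DN NK, with sums of 2.99 to 3.52 and 41.1 to 54.3 FPKM. For ILC1, a tissue-resident relative of NK cells, 3 of 9 markers reached 1 FPKM in cNK and 8 in DN NK, with sums of 7.04 to 8.05 FPKM in cNK and 128 to 136 FPKM in DN NK. For ILC2 or ILC3 the sums were 15.3 to 17.7 and 27.5 to 31.5 FPKM, and for plasma cells 22.0 to 23.5 and 39.3 to 46.0 FPKM. Within these sums Gata3 alone was at 15.1 and 16.9 FPKM in cNK and DN NK, and Xbp1 alone at 22.0 and 35.7 FPKM. Myeloid markers summed to 211 to 227 FPKM in cNK and 140 to 153 FPKM in DN NK, but this sum is mostly Itgax, at 188 and 124 FPKM. Lyz2 was at 0.337 FPKM in cNK and 0.988 FPKM in DN NK, and S100a8 and S100a9 were listed at 0 in cNK and were at 0.0737 and 0.181 FPKM in DN NK. NK cell markers were present in both groups, with sums of 6023 to 6709 FPKM in cNK and 1464 to 1718 FPKM in DN NK, and all 10 fell.

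The genes with the nearest profile over the 6 libraries differed by locus. Nearness is the root mean square difference of log2(FPKM + 0.1) after centring each gene, and it reads mostly the group difference. For Trdc the nearest were Cd55, Zeb2, Nuf2, Gpr137b and Arhgap19, at 0.0352 to 0.0573. For Tcrg-C4 they were Ckb, Cd74, Dscam, H2-Aa and P2rx7, at 0.220 to 0.272. For Tcrg-C1 they were Zfp683, Ckb, P2rx7, Igkv12-44 and Cd4, at 0.264 to 0.553, and for Tcrg-C2 they were Igkv9-120, Il7r, Asb2, Tnfrsf25 and Togaram2, at 0.0720 to 0.153. For Trac, whose libraries scattered more, they were Fbxo27, Twnk, Azin1, Tpd52l2 and Slc20a1, at 0.0792 to 0.101. Those of Trbc1 and Trbc2 (Gpn3, Ranbp3, Cxxc1, Tsc22d2 and Taf3, and Edc4, Phlpp1, Notch2, Dedd2 and Polr2c) lay at 0.0189 to 0.0318.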

How the data were processed

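Poly(A) libraries made with a kit that does not mark the strand were sequenced as paired reads of 150 bases, per the labels' protocols. Per the submitters' processing notes, the genome build was GRCm38 (mm10) and the tools were HISAT, StringTie and edgeR. The deposited table gives FPKM values and, per the file headers, a count per gene row and library. The deposited counts are whole but follow FPKM times transcript length rounded up (89.2 to 91.3% of low values in rows with 1 transcript), so they were treated as the authors' estimated counts. Their most frequent low value is 4, taken as the worth of 1 read pair, which is approximate.

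edgeR 4.0.16 (R 4.3.3) was fitted to the 6 libraries with TMM factors (0.972 to 1.03), robust quasi-likelihood and group as the only term, 2-sided, on rows that reached 1 FPKM in 3 or more libraries. These 11690 rows hold 99.3% of the estimated counts, and the biological coefficient of variation was 13.5%. The threshold was an adjusted p of 0.05 over all tested rows. The SE is the log2 fold change divided by the square root of F. Sums, shares and ratios per library were compared by exact permutation. Alternatives used limma 3.58.1 on log2(FPKM + 1) and log2(FPKM + 0.1), DESeq2 1.42.0, other scalings and filters, and left-out libraries. Deposited spans of the 7 genes equal those of GENCODE M21. Sequences and identities come from its transcripts (Biopython 1.88).

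The members and gene lists were chosen with earlier results of these data known. Genes were named by rule: the 7 members, the 5 nearest profiles of each, the nearest expressed gene on each side of each locus, and from each list up to 3 with the largest change past the threshold and the most abundant. Other segments and list members given with values were picked after their values were seen. Not every gene named by the rule is reported here.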

Additional observations from a re-analysis of the deposited data

How the results depend on the processing

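All 7 constant genes kept their direction and stayed past the threshold in each of the 14 or 15 alternatives that tested them, with the highest adjusted p for Trac, 0.0363 without DN NK replicate 2 (edgeR). With a mean of at least 5 FPKM, Tcrg-C1 and Tcrg-C2 were no longer tested, and 2278 rows were higher and 2336 lower, against 3602 and 3613, since fewer rows were tested. On log2(FPKM + 1) with limma, which understates low genes, the log2 fold changes of Tcrg-C1, Tcrg-C2 and Tcrg-C4 were 3.16, 1.78 and 4.59. The difference in the log2 ratio of gamma plus delta to alpha plus beta, 0.68, reversed to -0.75 in estimated counts scaled by depth alone and to -1.01 without Tcrg-C4. It was 0.72 with Trbc1 alone and 0.55 with Trbc2 alone as the beta sum, a choice added after seeing the data. The difference in the log2 ratio of gamma to delta ranged from 7.29 to 7.46 over the left-out libraries. Without Tcrg-C4 this ratio has no value, since cNK replicate 1 then holds 0.

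Whether the replicate numbers of the titles pair the libraries is not settled. The correlations of deviations for numbers 1, 2 and 3 were 0.0460, 0.0362 and 0.162. Those between unlike numbers ranged from -0.0984 to 0.0565. With 3 libraries a group, such values cannot exclude pairing. With the replicate block 3585 rows were higher and 3637 lower, with 6 of the 7 constant genes higher and 1 lower. Counting depth limits Tcrg-C1 and Tcrg-C2 in cNK, where 33 and 0 estimated counts were seen.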

Other observations

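The expressed genes nearest to the receptor loci on either side were measured as well, and none of the 6 was called higher in DN NK. Vps41, Ssbp1 and Ephb6 were called lower. Over all tested rows, 30.8% were called higher and 30.9% lower, so calls on 6 genes say little. Whether the changes end at the receptor genes was not tested. Stard3nl, 4920 bases past Tcrg-C4, was at 3.21 ± 0.307 FPKM in cNK and 2.54 ± 0.330 FPKM in DN NK (log2 fold change -0.28, edgeR adjusted p = 0.0526). Vps41, the nearest expressed gene on the other side of the gamma locus at 311213 bases, fell by 0.55 on the log2 scale. Dad1 and Mettl3, which flank the alpha and delta region, lay at 0.19 and -0.15 and did not pass. Ssbp1 and Ephb6, on either side of the beta locus at 406529 and 47030 bases, fell by 0.51 and 0.67.

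Prss2, a trypsin gene that lies inside the beta locus, was at 0.855 ± 0.135 FPKM in cNK and 5.10 ± 0.854 FPKM in DN NK (log2 fold change 2.62, SE 0.21, edgeR adjusted p = 1.50e-05). All cNK libraries of Prss2 lay under 1 FPKM, so it passed the filter only through the DN NK libraries and had to be higher there.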
